A study of Rattus norvegicus with 6 samples.

Results

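Synaptic vesicle and SNARE genes were measured in rat brain on 6 single-colour arrays. The 3 sham arrays hold brain tissue after a sham operation, and the 3 ICH arrays hold tissue after intracerebral hemorrhage, bleeding within the brain. The gene set was defined by gene symbol: synaptotagmins, syntaxins, syntaxin-binding proteins, the SNAP and VAMP families, synapsins, SV2 proteins, complexins and RIM proteins. It holds 61 of the 15443 genes named on the array, with 68 of its 30367 probes, and 7 of these genes have 2 probes. Another 9 RefSeq symbols of these names, among them Stx16, Syt14, Syt16 and Stxbp4, had no matching probe. The labels place the ICH samples in peripheral brain tissue, the series title around the hematoma (the clot), and every sample carries the label day 1 under age. Strain, sex, the way the bleed was made and the dissection are not given in the sources used here. The series design text calls the second group transfected, which no sample label does. Replicates are biological according to the labels, which do not say whether each sample was 1 animal, and the p-values measure the spread between these samples.

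Transmitter is stored in synaptic vesicles, small membrane sacs filled at the nerve terminal. A vesicle fuses when its VAMP protein zips together with syntaxin and SNAP-25 of the plasma membrane into the SNARE complex, the synaptotagmins sense the calcium that starts fusion, and complexins clamp and then help the assembled complex. RIM proteins gather vesicles and calcium channels at the active zone, Munc18 proteins (the Stxbp genes) hold syntaxin ready, synapsins tether the reserve of vesicles, and SV2 proteins sit in the vesicle membrane. Most of the other syntaxins, SNAPs and VAMPs serve traffic between Golgi, endosomes and the surface in all cells, so the set is wider than the synapse. Snap91, which encodes the clathrin adaptor AP180, falls into the set by its name and is no SNARE.

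Values are the deposited log2 values, relative to the 75th percentile of each array, and differences are ICH minus sham, ± SE, with 3 arrays in each group. All 68 probes passed the filter on dim probes, 66 of them well above background on all 6 arrays and 2 on 5, and no probe of the set was saturated. The ICH arrays varied more than the sham arrays. The median standard deviation was 0.16 in sham and 0.29 in ICH over the set's probes, against 0.14 and 0.31 over all probes tested. The share of spots well above background ran from 81.8% to 85.4%. All arrays lay on 1 slide, the sham arrays and ICH 1 in 1 row and ICH 2 and ICH 3 in the other. With so few arrays the median SE over the set was 0.19.

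No probe of the set passed at an adjusted p under 0.05 in limma, nor did any of the 24650 probes tested (0.0%). The adjusted p of the 68 ran from 0.288 to 0.969. At an unadjusted p under 0.05 there were 13 probes of 13 genes, 7 with higher and 6 with lower values in ICH. That is 10.3% and 8.82% of the set, beside a background of 6.18% higher and 8.82% lower, or 15.0% in both directions. All ICH arrays lay above all sham arrays for 10 probes (14.7% of the set, background 10.8%) and below them for 10 (14.7%, background 16.7%), and the background in both directions was 27.5%. The counts of lower probes lie near the background. The median difference over the 68 was −0.03, against −0.04 over all probes, with 30 probes above 0 and 38 below. The 7 and 6 probes became 4 and 2 without sham 1, 1 and 4 without sham 2, 3 and 4 without sham 3, and 14 and 7 without ICH 2. They became 4 and 6 with median centring and 21 and 1 with centring on spike-in probes, which moved the median of all probes from −0.04 to 0.40.

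**Figure D1:**
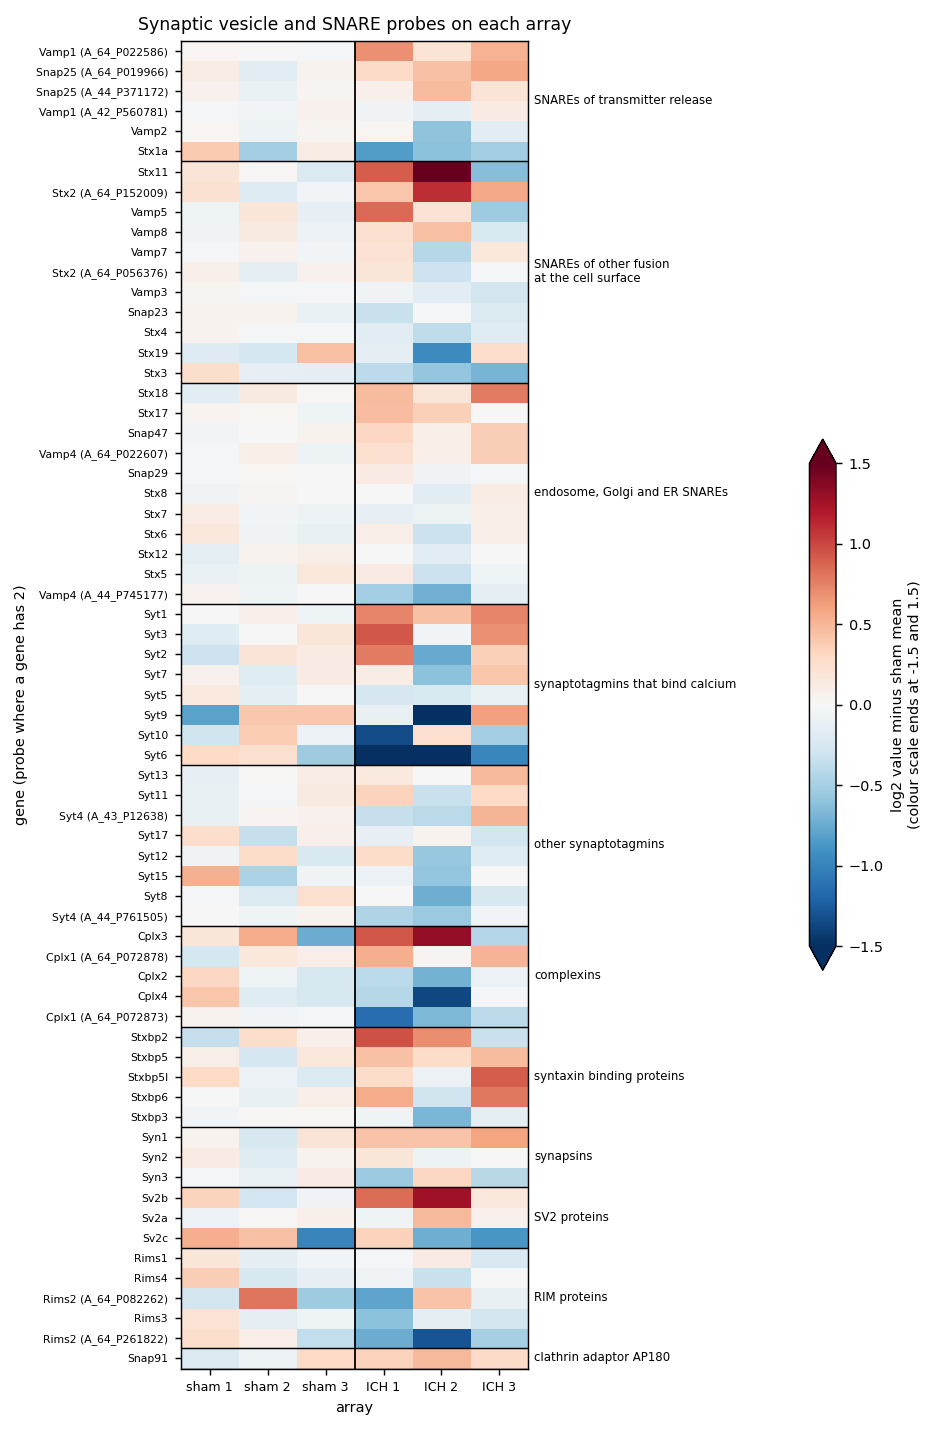
Log2 value of 66 of the 68 probes on each of the 6 arrays (columns) minus the probe's sham mean, in colour from −1.5 to 1.5, with genes in rows sorted by role and by difference. Syt1 is red and Syt6 blue on all 3 ICH arrays, while most rows show both colours or little colour, and ICH 2 and ICH 3 often differ.

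Among the 7 probes of the SNAREs of transmitter release, 4 had values above 0 and 3 below, with a median of 0.10. At an unadjusted p under 0.05 there were 2 higher and 1 lower. Snap25, the plasma membrane SNARE cut by several botulinum toxins, has 2 probes assigned to different RefSeq transcripts. The probe A_64_P019966 stood at 1.86, 1.60 and 1.80 on the sham arrays 1 to 3 and at 2.04, 2.20 and 2.34 on the ICH arrays 1 to 3. The ICH arrays lay above every sham array, and the difference was 0.44 ± 0.15, or 1.36-fold (unadjusted p = 0.0236, adjusted p = 0.294 by limma). The other probe, A_44_P371172, read 2.54, 2.38 and 2.52 in sham and 2.56, 2.96 and 2.67 in ICH, a difference of 0.25 ± 0.15 whose ICH 1 value cleared the sham range by little.

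Stx1a, the neuronal syntaxin that pairs with SNAP-25, had lower values in ICH. It stood at 1.43, 0.53 and 1.15 on sham arrays and 0.19, 0.42 and 0.51 on ICH arrays, a difference of −0.66 ± 0.25 (adjusted p = 0.319). Sham 2 lay next to the ICH values. With 1 array left out the difference ran from −0.46 without sham 1 (unadjusted p = 0.119 by limma) to −0.91 without sham 2 (unadjusted p = 0.00503), and the unadjusted p was over 0.05 without any array other than sham 2. Vamp2, the main vesicle SNARE of the forebrain, differed by −0.25 ± 0.19, and only ICH 2, at 1.95 against 2.59 and 2.38 on ICH 1 and ICH 3, stood clearly below the sham values of 2.48 to 2.60. Vamp1, the vesicle SNARE that prevails in brainstem and spinal cord, gave 0.48 ± 0.16 with the probe A_64_P022586, which has 2 spots. That probe stood at −1.35, −1.39 and −1.40 in sham and at −0.69, −1.17 and −0.85 in ICH. The brighter probe A_42_P560781, with 10 spots, gave −0.02 ± 0.13. It read 2.28, 2.25 and 2.36 in sham and 2.25, 2.15 and 2.42 in ICH.

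Of the synaptotagmins, Syt1 had higher and Syt6 lower values in ICH, and these had the smallest p-values of the set. Syt1, the calcium sensor of fast release, stood at −3.75, −3.67 and −3.80 in sham and at −3.01, −3.30 and −3.00 in ICH. The groups were well apart, and the difference was 0.63 ± 0.14, or 1.55-fold (unadjusted p = 0.00375, adjusted p = 0.288). Syt6, a calcium-binding member studied mostly in sperm exocytosis, stood at −2.83, −2.90 and −3.67 in sham and at −5.01, −5.73 and −4.11 in ICH. That is −1.82 ± 0.45, or 3.53-fold lower (unadjusted p = 0.00637, adjusted p = 0.288), with sham 3 nearest to the ICH arrays and ICH 3 nearest to sham. Syt6 is the 1 probe of the set with a difference beyond 1 in size (1.47% of the set, against 4.4% of all probes). Syt1 and Syt6 were also the 2 probes of the set with an unadjusted p under 0.05 in the main setting and each of the 19 alternatives (2.94% of the set, against 1.84% of all probes).

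Genes of striatal projection neurons, like Syt6, had their lowest sham values on sham 3 by the median of the list. The list of 10 such genes had 13 probes, all 13 lower on average, 8 of them at an unadjusted p under 0.05 and 6 with all ICH arrays below all sham arrays, and no gene of the list was at background. Its median relative to the sham mean reached 0.34, 0.45 and −0.76 on sham arrays and −0.70, −1.39 and −0.99 on ICH arrays, so that sham 3 lay at the level of ICH 1. Its summed signal ran from 20.8 to 40.8 in sham and from 12.7 to 19.4 in ICH, in units of the array's 75th percentile. Sv2c, an SV2 protein concentrated in the basal ganglia, also had its lowest sham value on sham 3. It stood at −4.72, −4.83 and −6.26 in sham and at −4.93, −6.01 and −6.14 in ICH (−0.42 ± 0.52). On ICH 1 Sv2c read 0.34 relative to sham, where the list's median was −0.70. Low sham 3 values were not confined to Syt6, Sv2c and the list. Relative to sham, Cplx3 read −0.75 on sham 3, and the Rims2 probes −0.53 (A_64_P082262) and −0.36 (A_64_P261822). The part of striatal projection neurons in the Syt6 and Sv2c values was not tested. In bulk tissue fewer cells of a type and less RNA per cell cannot be told apart.

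The other calcium-binding synaptotagmins differed in their spread on the ICH arrays, from an SD of 0.082 for Syt5 to 1.08 for Syt9. Syt2, the fast sensor of many brainstem and inhibitory synapses, read −2.84, −4.37 and −3.26 on ICH 1 to 3 against −3.92, −3.43 and −3.50 in sham, a difference of 0.13 ± 0.41. The remaining 5 of this kind, Syt3, Syt5, Syt7, Syt9 and Syt10, had no unadjusted p under 0.05. The 7 genes of synaptotagmins that bind calcium weakly or not at all had 8 probes, 6 with values below 0, with a median of −0.14, and none reached an unadjusted p under 0.05. Among them Syt4, carried on dense-core vesicles, gave −0.35 ± 0.17 and −0.08 ± 0.27 with its 2 probes.

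**Figure D2:**
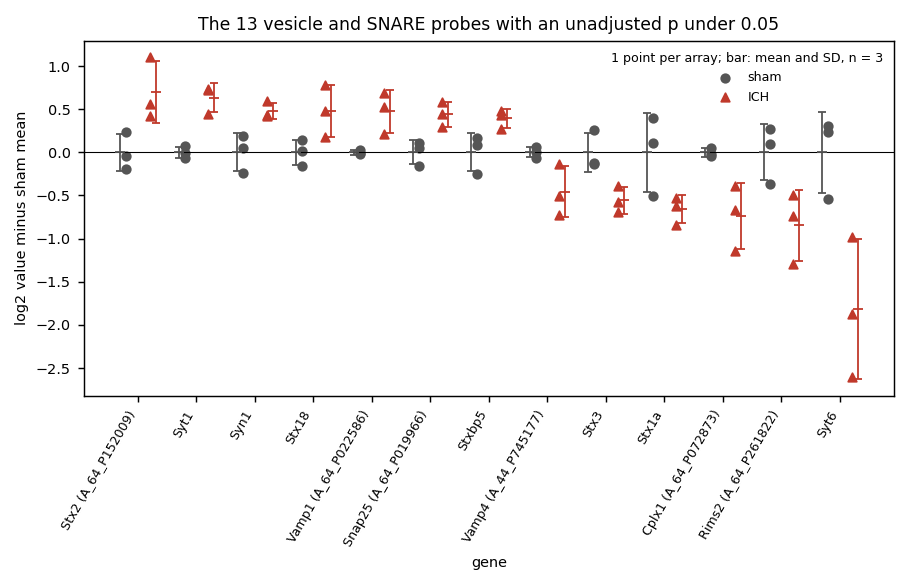
Log2 value minus the sham mean for the 13 probes with an unadjusted p under 0.05, 1 point per array (grey circles sham, red triangles ICH), with the mean and SD of each group of 3 beside the points. None of the 13 has overlapping groups, and Syt6, at −1.82, stands lowest.

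Synapsin I, the phosphoprotein that ties vesicles to actin, was the synapsin whose groups did not overlap. Syn1 stood at −1.12, −1.40 and −0.97 in sham and at −0.74, −0.73 and −0.57 in ICH (0.48 ± 0.16, adjusted p = 0.293). Syn2 differed by 0.03 ± 0.15 (95% interval −0.33 to 0.40) and Syn3 by −0.22 ± 0.25. Of the SV2 genes, Sv2b read −1.30, −1.92 and −1.68 in sham and −0.80, −0.36 and −1.47 in ICH (0.75 ± 0.32, adjusted p = 0.341), where ICH 3 lay inside the sham range. Sv2a, the target of the antiepileptic levetiracetam, differed by 0.16 ± 0.18.

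The stretches of DNA just before the start of Syn1, Vamp1, Syt1, Cplx1 and Syt6 are shown. These genes are part of the 13 of the set with a probe at an unadjusted p under 0.05, and the others are not shown. The choice includes the 2 genes of the set in which the response element marked below was found. Syn1 and Syt1 had higher and Syt6 lower values in ICH, while Vamp1 and Cplx1 each have 2 probes of opposite sign. They are the 250 bases before the annotated start in RefSeq (GRCr8), written 5′ to 3′ on the gene's strand, from chrX:3725495-3725744 (plus), chr4:159698644-159698893 (plus), chr7:46244214-46244463 (minus), chr14:1328823-1329072 (plus) and chr2:193781226-193781475 (plus) in that order. Capitals mark the cyclic AMP response element TGACGTCA and the GC box GGGCGG, searched on both strands.
Syn1: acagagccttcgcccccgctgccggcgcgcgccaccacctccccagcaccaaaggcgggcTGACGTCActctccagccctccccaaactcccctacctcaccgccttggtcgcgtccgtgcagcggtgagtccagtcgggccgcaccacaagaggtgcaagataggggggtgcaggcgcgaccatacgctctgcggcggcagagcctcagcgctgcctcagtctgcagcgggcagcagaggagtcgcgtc
Vamp1: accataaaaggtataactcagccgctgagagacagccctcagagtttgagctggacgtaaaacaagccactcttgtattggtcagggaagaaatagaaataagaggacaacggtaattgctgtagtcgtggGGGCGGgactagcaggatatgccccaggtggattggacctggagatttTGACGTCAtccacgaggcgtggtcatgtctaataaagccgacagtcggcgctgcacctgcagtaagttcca
Syt1: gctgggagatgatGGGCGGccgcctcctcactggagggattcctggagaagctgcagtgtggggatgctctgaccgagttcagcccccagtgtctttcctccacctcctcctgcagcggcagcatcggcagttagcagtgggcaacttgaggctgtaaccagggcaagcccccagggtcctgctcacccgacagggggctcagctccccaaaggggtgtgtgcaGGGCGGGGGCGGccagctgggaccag
Cplx1: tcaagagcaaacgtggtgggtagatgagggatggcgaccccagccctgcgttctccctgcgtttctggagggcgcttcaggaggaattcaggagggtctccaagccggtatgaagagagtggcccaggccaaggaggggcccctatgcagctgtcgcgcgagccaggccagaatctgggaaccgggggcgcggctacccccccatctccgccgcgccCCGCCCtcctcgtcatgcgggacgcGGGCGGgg
Syt6: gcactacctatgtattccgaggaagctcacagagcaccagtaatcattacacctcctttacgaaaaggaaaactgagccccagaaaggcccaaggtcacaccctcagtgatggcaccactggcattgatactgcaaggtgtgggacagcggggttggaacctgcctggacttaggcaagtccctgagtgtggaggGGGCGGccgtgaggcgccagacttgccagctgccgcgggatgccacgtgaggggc
The element TGACGTCA occurred 1 time in Syn1, ending 183 bases before the start, and 1 time in Vamp1, ending 64 bases before it. Of the 46 genes of the set found in the RefSeq table these 2 alone held it (4.35%), beside 1.59% of all 33469 promoters. The GC box occurred 3 times in Syt1, 2 times in Cplx1 and 1 time each in Vamp1 and Syt6. It was present in 28 of the 46 genes (60.9%) and in 30.5% of all promoters. It stood before Syt1, with higher values, and before Syt6, with lower values, and a match describes letters in this window, not binding.

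Complexin genes had the widest disagreement between probes. Cplx1, the complexin prevalent in inhibitory neurons, has 2 probes for the same RefSeq transcript. The probe A_64_P072873 stood at 1.52, 1.42 and 1.45 in sham and at 0.32, 0.79 and 1.07 in ICH (−0.74 ± 0.21, adjusted p = 0.288). The probe A_64_P072878 read −0.02, 0.41 and 0.35 in sham and 0.79, 0.28 and 0.76 in ICH (0.37 ± 0.20, adjusted p = 0.423). On sham arrays the first exceeded the second by 1.54, 1.02 and 1.1, and on ICH arrays by −0.47, 0.51 and 0.31, so that no direction can be given for the gene. Cplx2, the complexin prevalent in excitatory neurons, differed by −0.40 ± 0.22, and Cplx3 and Cplx4, known from ribbon synapses of the retina, by 0.60 ± 0.54 and −0.61 ± 0.38.

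The active zone genes of the RIM family lay below 0 with all 5 probes. Rims2 gave −0.84 ± 0.27 with the probe A_64_P261822 (−3.81, −3.98 and −4.44 in sham, −4.82, −5.38 and −4.57 in ICH, adjusted p = 0.289) and −0.16 ± 0.45 with A_64_P082262. The ICH 3 and sham 3 values of the first probe were close, at −4.57 and −4.44. Rims3, a short RIM, differed by −0.34 ± 0.18, Rims4, the other short form, by −0.13 ± 0.21, and Rims1, the main RIM of central synapses, by −0.04 ± 0.16. With spike-in centring Rims1, Rims3, Rims4 and the second Rims2 probe turned positive, at 0.40, 0.10, 0.32 and 0.29, where the median of all probes was 0.40.

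Of the 6 syntaxin-binding genes, 5 had values above 0. Stxbp5, which encodes tomosyn, a brake on SNARE assembly, stood at −1.73, −2.06 and −1.65 in sham and at −1.37, −1.54 and −1.33 in ICH (0.40 ± 0.16, adjusted p = 0.331). The 1 gene below 0 was Stxbp3, the partner of Stx4 at the cell surface.

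The other SNAREs of the set showed small differences with a few exceptions. Stx3, a syntaxin of ribbon synapses and of the apical surface of epithelia, stood at −2.60, −2.99 and −3.00 in sham and at −3.26, −3.45 and −3.56 in ICH (−0.55 ± 0.17, adjusted p = 0.288). Stx2 gave 0.70 ± 0.23 with the probe A_64_P152009 (−3.40, −3.83 and −3.67 in sham, −3.21, −2.53 and −3.07 in ICH) and −0.05 ± 0.17 with A_64_P056376. Stx18, of the endoplasmic reticulum, differed by 0.48 ± 0.19 (adjusted p = 0.330). Vamp4, of endosomes and the Golgi, gave −0.45 ± 0.18 with A_44_P745177 and 0.23 ± 0.13 with A_64_P022607, and in both cases the ICH and sham arrays did not overlap. The 11 probes of SNAREs of endosomes, Golgi and endoplasmic reticulum had a median of −0.02 and ran from −0.45 to 0.48. The 30 probes of the set not chosen for separate description ran from −0.54 to 0.53, and the AP180 gene Snap91, among them, differed by 0.37 ± 0.18.

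Stx11, Stxbp2, Vamp8 and Vamp5 are given for their low ICH 3 values, and were picked after those were seen. Low ICH 3 values were not confined to these 4 genes. Relative to sham, Cplx3 read 0.93, 1.32 and −0.44 on ICH 1 to 3, with −0.75 on sham 3. Stx11, which with its partner Stxbp2 serves granule release in cytotoxic lymphocytes, stood at −5.16, −5.34 and −5.57 in sham and at −4.45, −3.39 and −6.00 in ICH (0.74 ± 0.63, adjusted p = 0.567). Stxbp2 read −6.04, −5.44 and −5.63 in sham and −4.75, −5.00 and −6.04 in ICH (0.44 ± 0.37). Without ICH 3 the differences were 1.44 for Stx11 and 0.83 for Stxbp2, and without ICH 2 they were 0.13 and 0.31. Without ICH 1 the Stxbp2 difference was 0.18. Vamp8, a vesicle SNARE of mast cells and other secretory cells, and Vamp5, known from muscle and endothelium, had their lowest value of all arrays on ICH 3, at 0.34 and −0.47. Other SNAREs of surface fusion were mixed on ICH 1 and ICH 2. Relative to sham, Snap23 read −0.33 and −0.02 on these arrays, Stx4 −0.17 and −0.38, and Vamp3 −0.05 and −0.17. Stx2 was high on both with the probe A_64_P152009, at 0.42 and 1.11, and read 0.56 on ICH 3. Its probe A_64_P056376 read 0.18 and −0.31 on ICH 1 and ICH 2. The list of 10 myeloid cell markers had 13 probes, 0 higher and 3 lower at an unadjusted p under 0.05. All ICH arrays lay above all sham arrays for 0 of them and below for 3. By sign alone 8 of the 13 were higher and 5 lower, with a median difference of 0.16 and a range from −1.01 to 2.18. The list's median relative to sham was 0.33, 0.86 and −0.40 on ICH arrays 1 to 3. Its summed signal ran from 24.7 to 26.5 in sham and from 19.4 to 30.2 in ICH, and none of its genes was at background. The part of these cells in the 4 genes was not tested.

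**Figure D3:**
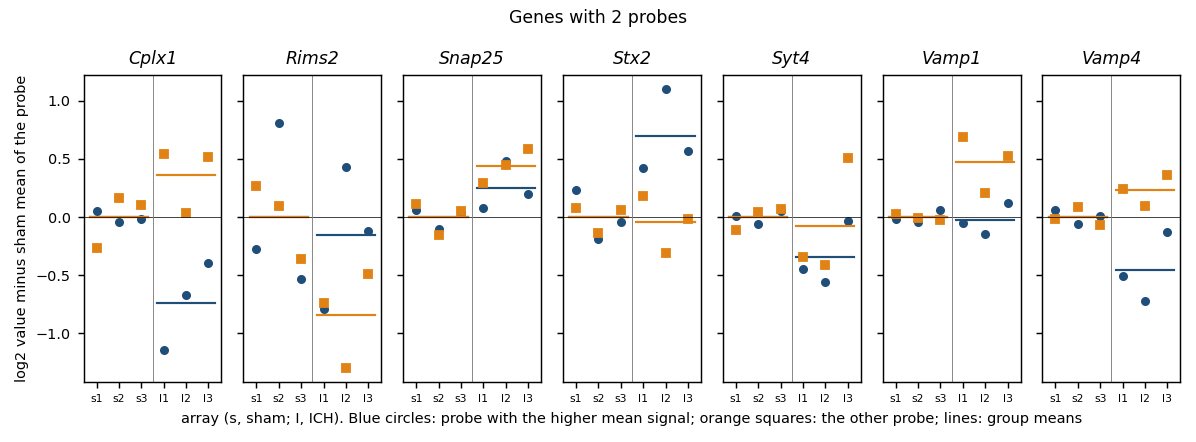
The 7 genes of the set with 2 probes each, 1 panel per gene, with the log2 value minus the probe's own sham mean on each of the 6 arrays and lines at the group means. The blue and orange points separate on the ICH arrays for Cplx1, where the 2 differences lie 1.1 apart, and keep closest for Snap25, where they lie 0.19 apart.

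Paired probes of a gene often differed. Of the 7 genes with 2 probes, 6 had 1 probe at an unadjusted p under 0.05 and 1 probe not, the exception being Syt4 with neither, and in 4 the probes had opposite signs (Cplx1, Stx2, Vamp1 and Vamp4). Among all 2103 genes with 2 probes tested, 23.3% had 1 such probe, 4.42% had both and 39.5% had opposite signs. The median gap between the 2 differences was 0.69 in the set and 0.28 over all such genes. The probe with the lower mean signal had the higher difference in 5 of the 7 genes, and in 65.2% of all such genes. For 6 of the 7 genes both probes are assigned to the same RefSeq transcript, and where each lies on its transcript is not used here. The other 54 genes rest on 1 probe, 7 of them at an unadjusted p under 0.05.

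Differences varied with signal, with no steady trend. The 24650 probes were cut into 5 equal bins by mean signal, and the median difference was −0.09 in the dimmest bin, 0.05 and 0.06 in the next bins, close to 0 in the bin after these and −0.17 in the brightest. In the brightest bin, 17.9% had lower and 1.18% higher values in ICH at an unadjusted p under 0.05. Of the 19 probes of the set in the brightest bin 15 were lower, with a median of −0.17, and 2 lower (Cplx1 and Vamp4) and 1 higher (Snap25) had an unadjusted p under 0.05. Of the 13 in the dimmest bin 8 were lower, with a median of −0.13, and 0 had an unadjusted p under 0.05. Of all probes in that bin 6.86% were higher and 7.16% lower at this threshold. The 14 in the second dimmest bin held 2 probes higher and 3 lower at this threshold, Syt1 and Syt6 among them. Of all probes in the second dimmest bin 9.35% were higher and 6.15% lower. The 13 in the middle bin had 9 values above 0 and held 4 of the 7 probes higher at an unadjusted p under 0.05. The middle bin was also among those with more higher than lower probes, at 8.60% higher and 5.46% lower of all its probes. With cyclic loess, which removes differences that vary with signal and was added after the data were seen, Cplx1 (A_64_P072873) differed by −0.63, Vamp4 (A_44_P745177) by −0.35 and Snap25 (A_64_P019966) by 0.63, and the probes with all ICH below all sham came to 5 where they had been 10.

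**Figure D4:**
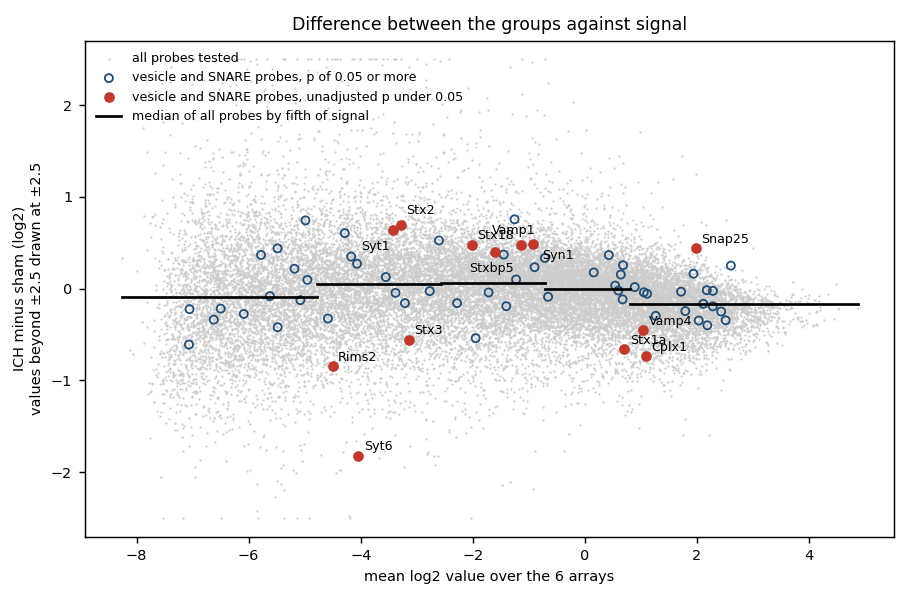
Difference between the groups (ICH minus sham, log2) against the mean log2 value over the 6 arrays, with all 24650 probes in grey, the 68 probes of the set in colour and black lines at the median of all probes in each of 5 bins of signal. The black line drops to −0.17 in the brightest bin, where Snap25 stands above it and Cplx1 and Vamp4 below.

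The other genes of the vesicle cycle were read from 3 lists, for the release machinery and active zone, for vesicle membrane proteins and for endocytosis. Of 71 genes listed, 65 were measured with 88 probes, 0 of which passed at an adjusted p under 0.05 by limma. The median difference over the 88 was −0.02. At an unadjusted p under 0.05, 12 were higher (13.6%, background 6.18%) and 7 lower (7.95%, background 8.82%). Soluble NSF attachment proteins, which help NSF take SNARE complexes apart after fusion, were among those higher. Napb, the brain form, stood at −4.48, −4.25 and −4.53 in sham and at −3.67, −3.65 and −3.32 in ICH (0.87 ± 0.16, adjusted p = 0.236). Napa, the general form, read 0.13, 0.31 and 0.42 in sham and 0.95, 0.75 and 1.17 in ICH (0.67 ± 0.16). The clathrin assembly gene Picalm differed by 0.76 ± 0.19 with a dim probe, well above background on 5 of 6 arrays. With another background correction (normexp) that probe differed by 0.29. A brighter Picalm probe differed by 0.58 ± 0.18. In the other direction the liprin gene Ppfia1 differed by −0.57 ± 0.15, the clathrin light chain gene Clta by −0.51 ± 0.17, and the adaptor gene Ap2b1 by −0.70 ± 0.19 with 1 probe and 0.35 ± 0.17 with another.

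Markers of other cells and of neurons in general were read beside these values. The list of neuron markers, 11 of 13 genes measured with 13 probes, had 0 higher and 2 lower at an unadjusted p under 0.05, with a median of −0.14 and a summed signal of 58.2 to 60.8 in sham and 44.8 to 60.2 in ICH. Cortical projection neuron markers, 8 of 9 genes measured, had 4 probes higher and 2 lower of 10 at this threshold (7 and 3 by sign). Their summed signal was 6.81 to 10.8 in sham and 11.7 to 12.8 in ICH, and Tbr1 was at background on all arrays. At the same threshold, endothelial markers had 4 of 7 probes lower (8.37 to 8.55 in sham, 5.29 to 7.08 in ICH). Astrocyte markers had 4 of 14 lower (51.3 to 54.5 against 43.7 to 46.2), and oligodendrocyte markers 2 of 14 (51.4 to 60.8 against 30.9 to 58.8). By sign alone 6 of 7 endothelial, 10 of 14 astrocyte and 13 of 14 oligodendrocyte probes were lower. Of 6 erythroid probes 3 were higher at this threshold and 5 by sign (3.48 to 7.23 against 6.49 to 9.91). Their part in the vesicle and SNARE values was not tested.

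Receptor genes of the other side of the synapse are given beside the set. The 16 probes of NMDA and AMPA receptor subunits had 4 higher and 2 lower at an unadjusted p under 0.05 (37.5% in all) and a median of −0.04. The 17 probes tested of GABA-A receptor subunits had 2 higher and 1 lower at this threshold (17.6%) and a median of 0.11. In the vesicle and SNARE set the share was 19.1%. A difference between these sets and the vesicle and SNARE genes was not tested.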

How the data were processed

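Per the labels' protocols, TRIzol was used for RNA, which was amplified linearly, labelled with Cy3 and hybridized to 1 array per sample. Per the file headers, Agilent Feature Extraction 11.5.1.1 gave the deposited intensity values, background-subtracted and detrended within the array. Other deposited columns are flags of 0 or 1, used here for spots above background. The submitters' processing notes name version 10.7. The deposited log2 values, whose processing the notes do not state, equalled the mean log2 intensity of a probe's spots plus 1 constant per array, within 0.01 for 99.3% to 99.7% of probes. Their 75th percentile over all 30507 rows was 0 on each array and their medians ran from −2.77 to −2.61, so scale and centring were settled from the values.

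Probes were named through RefSeq transcripts (GRCr8): 18355 had 1 symbol and 12012 had none. Probes well above background (at least 0.5 of spots) on at least 3 of 6 arrays were kept. Each of the 24650 was tested with limma 3.58.1 in R 4.3.3, with no covariate and Benjamini-Hochberg adjustment over all of them. The test was checked on simulated data. Members, lists and tests were chosen with earlier results of these data known.

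Named probes were the 10 with the smallest p, the core release genes (2 are not reported here), genes whose probes differed by more than 1, probes dim in 1 group only (0 were found), and 3 further vesicle cycle genes in each direction; 11 more probes were singled out after their values were seen. Deposited values, not those recomputed from the scanner files, were the main values; the latter were an alternative. Other alternatives were normexp background correction (offset 50, on median signals), quantile normalization, centring on the median or on 7 spike-in probes, filters on dim probes, 1 probe per gene, an intensity trend with robust variance, array quality weights, the replicate number as a block, the slide row as a block, 1 array left out in turn and, added after the data were seen, cyclic loess. Python 3.11.15 with pandas 2.3.3 was used for tables and matplotlib 3.10.9 for figures.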

Additional observations from a re-analysis of the deposited data

How the results depend on the processing

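No probe of the set passed at an adjusted p under 0.05 by limma under any of the 19 alternatives (lowest adjusted p 0.101), where 13 had an unadjusted p under 0.05 by the main analysis. The probes higher and lower at an unadjusted p under 0.05, 7 and 6, came to 11 higher with array quality weights, 4 higher with median centring, 3 higher with the slide row as a block, which leaves ICH 1 against sham, and 21 higher and 1 lower with spike-in centring. With 1 array left out they ran from 1 to 14 higher and from 2 to 7 lower. Probes with all ICH above all sham, 10, came to 31 with spike-in centring and 10 to 18 with 1 array left out. Those with all ICH below all sham, 10, came to 5 with quantile normalization, 5 with cyclic loess, 1 with spike-in centring and 11 to 16 with 1 array left out. The median difference, −0.03, was 0.053 with quantile normalization, 0.054 with cyclic loess, 0.073 with the slide row, 0.41 with spike-in centring and −0.081 to 0.063 with 1 array left out. The cause was not tested.

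Of the named probes, 38 of the set and 6 of other vesicle cycle genes, 28 kept their sign under every alternative run. With spike-in centring the signs turned for Cplx2 (0.043), Rims1 (0.40), Rims2 A_64_P082262 (0.29), Rims3 (0.10), Rims4 (0.32), Stx2 A_64_P056376 (0.40), Sv2c (0.022), Syn3 (0.23), Syt4 (0.36 for A_43_P12638 and 0.10 for A_44_P761505), Vamp1 A_42_P560781 (0.42) and Vamp2 (0.19). With array quality weights they turned for Rims4 (0.027), Stx2 A_64_P056376 (0.039), Sv2c (0.073) and Syt4 A_43_P12638 (0.0096). With the slide row they turned for Stx2 A_64_P056376 (0.18), Sv2a (−0.061), Sv2c (0.34) and Vamp2 (0.034). Syn2 turned with median centring (−0.022), and Vamp1 A_42_P560781 with quantile normalization (0.17) and cyclic loess (0.19). With 1 array left out the values crossed 0 for Rims1 (−0.13 to 0.054), Rims2 A_64_P082262 (−0.45 to 0.25), Rims4 (−0.25 to 0.059), Stx2 A_64_P056376 (−0.16 to 0.085), Syn2 (−0.058 to 0.10), Syt2 (−0.20 to 0.57), Syt4 A_43_P12638 (−0.38 to 0.083), Vamp1 A_42_P560781 (−0.10 to 0.036) and Vamp5 (−0.16 to 0.53). Values of Snap91, Snap23, Stx4 and Vamp3 were also given, but these are outside the count of named probes. Snap91 kept its sign, and Snap23 (0.25), Stx4 (0.20) and Vamp3 (0.28) turned with spike-in centring. Vamp3 also turned with quantile normalization (0.024) and cyclic loess (0.032).

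With the replicate number as a block, 3 probes were higher and 4 lower at an unadjusted p under 0.05. Arrays of the same number deviated from their group means with correlations of −0.19, −0.01 and 0.07, so the numbers gave no sign of pairing. The number of arrays limits the precision.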
